A study of Homo sapiens with 23 samples.

Results

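The genes described here are the 34 that carry out or control glycolysis, handle its end product lactate, or answer to low oxygen. They were chosen by gene symbol from a written list, and all 34 were found in each of the 23 libraries, among 60564 listed gene IDs. They comprised 9 genes of upper glycolysis, 8 of lower glycolysis, 2 enzymes of fructose 2,6-bisphosphate, 4 genes of lactate formation and transport, 3 pyruvate dehydrogenase kinases (PDKs) and 8 targets of the hypoxia-inducible factors (HIFs) outside glycolysis.

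Glycolysis splits glucose into pyruvate. Pyruvate enters the mitochondrion through pyruvate dehydrogenase, which the PDKs switch off, or becomes lactate, which leaves the cell through monocarboxylate transporters. When oxygen falls, the prolyl hydroxylases of the EGLN family no longer mark the HIF α subunits for destruction, and HIF raises many genes of glycolysis together with genes such as VEGFA and CA9. Several steps are carried out by paralogous enzymes that differ between tissues. The normal adult hepatocyte uses the glucokinase, liver-type phosphofructokinase and liver pyruvate kinase, whereas many tumour cells use HK2, PFKP and PKM.

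The libraries came from 2 established human lines grown in a gut-liver chip: Caco-2, a colorectal adenocarcinoma line used as a gut epithelium, and HepG2, a hepatocellular carcinoma line used in place of hepatocytes. Each line was mono-cultured or co-cultured with the other in a closed loop of medium, without free fatty acids (control) or with 1 mM FFAs for 1 day, palmitic and oleic acid in a ratio of 1 to 2. Per the labels the treatment medium held 0.5% serum in all groups, whereas the paper's methods give a serum-free medium. Each of the 8 groups held 3 libraries, except co-cultured Caco-2 control with 2. Each line is a single tumour line in chip culture, and the p-values measure the spread between its libraries. The study speaks of biological replicates and of repeated independent experiments, but the sources used here do not say which library belongs to which experiment or chip. Values are TPM, the share of a library's length-scaled RNA that comes from a gene, so the read depth is unknown. Between 19259 and 23689 genes had a value above 0 per library.

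The 2 lines carried their own markers, with exceptions. The intestinal genes CDH17 and CDX2 had group means of 374 to 444 TPM and 76.5 to 95.0 TPM in Caco-2, whereas CDX1 was at or below 0.1 TPM. Albumin (ALB) had means of 26697 to 30825 TPM in HepG2 and 370 to 604 TPM in Caco-2, and the brush-border gene VIL1 reached 180 to 225 TPM in HepG2. The HepG2 libraries numbered 3 stood apart from the other 8. In all 4 HepG2 groups the library numbered 3 was the highest for 7 of the 34 genes and the lowest for 9, while 23.7% of 14230 genes were at such an extreme there, against 4.54% for the libraries numbered 1 and 5.55% for those numbered 2. The HepG2 and line results were therefore recomputed without these 4 libraries, a check added after the data were seen. Of 94 recomputed results 89 kept their sign and call, and values without them are given where a call or a fold moved.

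The sequence upstream of the start of 31 of the 34 genes was found in RefSeq (GRCh38.p14). The hypoxia response element holds the core letters ACGTG or GCGTG, and 6 stretches of 250 bases that end at the RefSeq start are printed because the results below turn on these genes, among them paralogs that the 2 lines used differently. Letters are 5′ to 3′ on the gene's strand, and capitals mark every match to ACGTG or GCGTG on either strand (CACGT and CACGC on the printed one). The palindrome CACGTG holds the core on both strands and was counted as 2.
LDHA, lactate dehydrogenase A, chr11:18394313-18394562, plus strand.
LDHA: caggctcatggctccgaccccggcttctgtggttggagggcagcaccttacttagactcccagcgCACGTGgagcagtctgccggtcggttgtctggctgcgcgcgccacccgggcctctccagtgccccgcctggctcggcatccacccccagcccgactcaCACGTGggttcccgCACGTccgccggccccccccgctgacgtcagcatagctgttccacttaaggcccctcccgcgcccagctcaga
LDHB, lactate dehydrogenase B, chr12:21657843-21658092, minus strand.
LDHB: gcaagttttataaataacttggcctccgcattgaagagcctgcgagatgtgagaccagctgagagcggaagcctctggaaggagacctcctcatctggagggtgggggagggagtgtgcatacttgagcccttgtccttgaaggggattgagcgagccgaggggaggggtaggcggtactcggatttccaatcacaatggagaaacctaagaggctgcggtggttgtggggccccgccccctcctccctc
HK1, hexokinase 1, chr10:69269750-69269999, plus strand.
HK1: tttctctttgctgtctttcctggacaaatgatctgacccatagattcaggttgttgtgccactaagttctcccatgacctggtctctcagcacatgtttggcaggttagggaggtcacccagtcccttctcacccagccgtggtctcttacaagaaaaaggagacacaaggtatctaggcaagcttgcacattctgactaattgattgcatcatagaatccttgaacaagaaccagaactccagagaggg
HK2, hexokinase 2, chr2:74833877-74834126, plus strand.
HK2: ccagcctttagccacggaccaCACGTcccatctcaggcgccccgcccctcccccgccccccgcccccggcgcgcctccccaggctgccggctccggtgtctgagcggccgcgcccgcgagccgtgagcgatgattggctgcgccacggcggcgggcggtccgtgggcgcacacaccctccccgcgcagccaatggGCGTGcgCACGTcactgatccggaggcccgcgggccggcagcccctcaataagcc
ENO1, enolase 1, chr1:8878687-8878936, minus strand.
ENO1: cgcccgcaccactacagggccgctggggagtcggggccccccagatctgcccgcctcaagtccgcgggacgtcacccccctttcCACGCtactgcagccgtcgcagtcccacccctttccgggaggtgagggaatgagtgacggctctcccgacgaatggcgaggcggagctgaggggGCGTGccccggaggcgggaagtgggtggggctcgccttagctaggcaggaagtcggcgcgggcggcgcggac
BNIP3, a mitophagy receptor, chr10:131981924-131982173, minus strand.
BNIP3: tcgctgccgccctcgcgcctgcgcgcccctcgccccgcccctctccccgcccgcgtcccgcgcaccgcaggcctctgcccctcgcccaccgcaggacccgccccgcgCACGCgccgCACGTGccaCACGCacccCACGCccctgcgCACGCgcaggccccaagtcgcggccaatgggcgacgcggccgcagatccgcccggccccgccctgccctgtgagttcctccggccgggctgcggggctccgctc

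The window of BNIP3 held 6 cores, that of LDHA 5, that of HK2 3 and that of ENO1 2, while none was found upstream of LDHB or HK1. Over all 31 genes, 20 windows (64.5%) held a core, and so did 43.2% of 35116 RefSeq promoters. The narrower ACGTG was in 14 of 31 (45.2%) and in 18.5% of all promoters. The genes' windows were also richer in CpG, with a median of 22 against 11. A match is a description of letters only. A gene can have several starts, and the RefSeq start of LDHB lay 100015 bases from the outer start of the gene in GENCODE release 44. The HK1 window lay at the outer start of that gene. Which start either line used cannot be read from TPM per gene, so the windows of paralogs may not be the ones in use.

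The levels of the 34 genes spanned more than 3 orders of magnitude within a line. By the median over its libraries, GAPDH was the highest of them in both lines, at 5250 TPM in Caco-2 (range 3967 to 6133) and 3845 TPM in HepG2 (3302 to 4176). In Caco-2 it was followed by LDHB, TPI1, ENO1 and ALDOA, in that order. In HepG2 the next were ENO1, ALDOA and LDHA. Neighbours in this order overlapped in many cases, for instance LDHB (1844 to 2297 TPM) and TPI1 (1804 to 2358 TPM) in Caco-2, while GAPDH overlapped with no other of these genes in either line.

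At the low end were the isoforms a line hardly used and some HIF targets. In Caco-2, CA9, a carbonic anhydrase of the cell surface and a common hypoxia marker, did not exceed 0.49 TPM and was listed at 0 in 6 of 11 libraries. In HepG2 it ran from 0.07 to 1.64 TPM. EGLN3, the oxygen-sensing hydroxylase that HIF itself induces, had a median of 3.99 TPM in Caco-2 and 0.71 TPM in HepG2. PKLR, the liver and red-cell pyruvate kinase, had a median of 0.92 TPM in Caco-2.

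**Figure D1:**
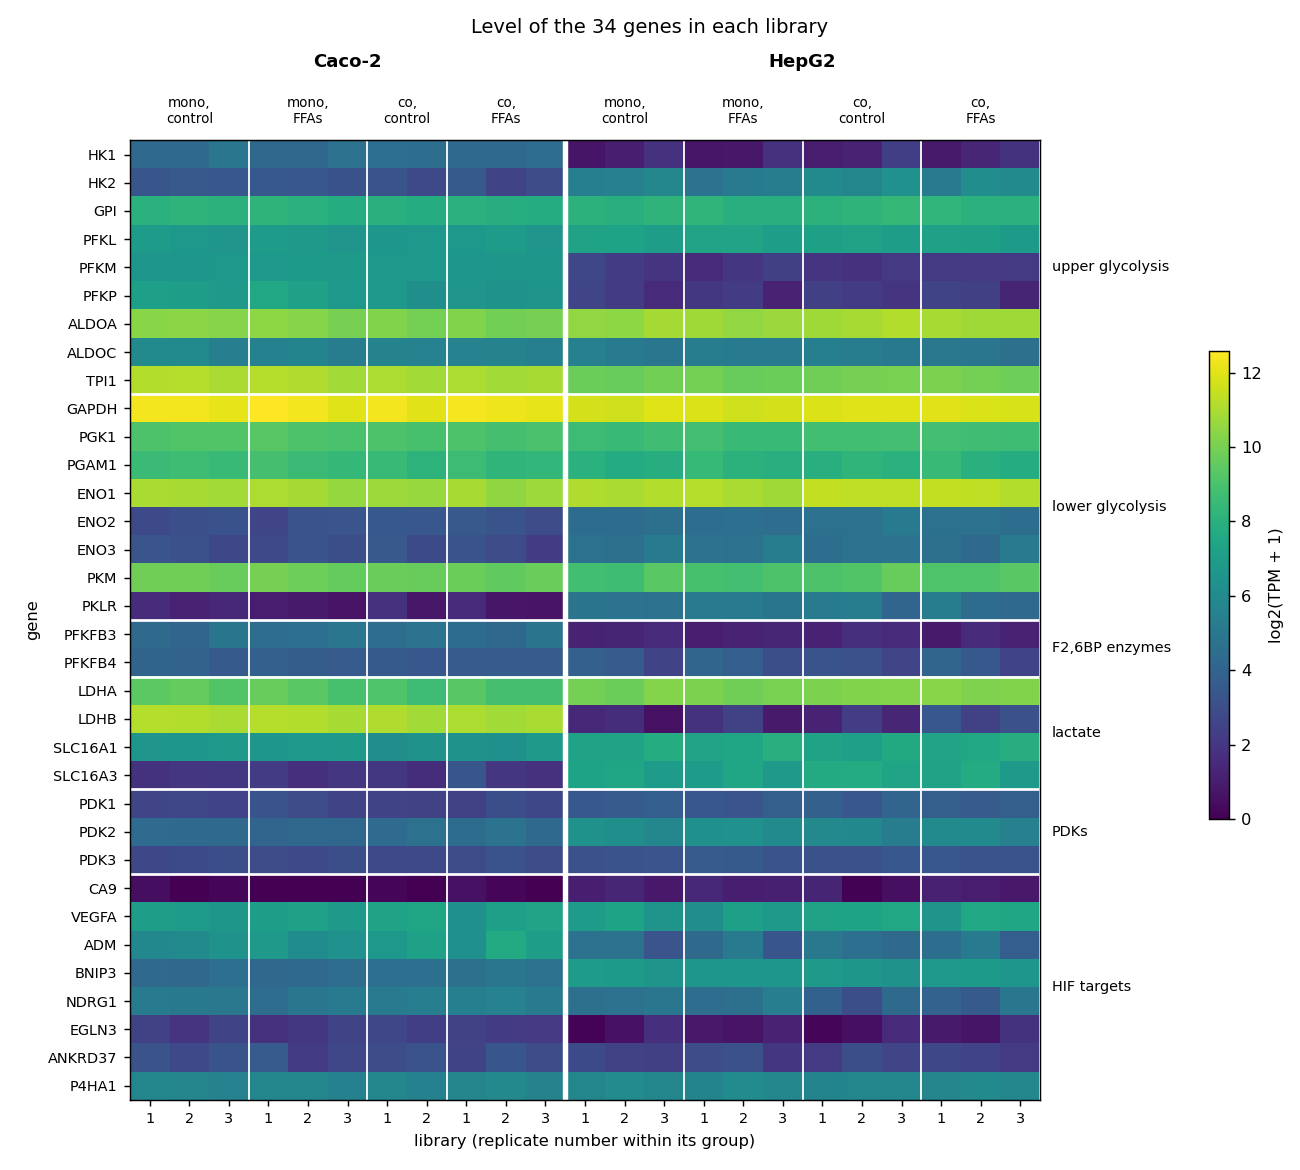
Level of the 34 genes as log2(TPM + 1), by colour, in each of the 23 libraries (columns, numbered by replicate within a group), with genes in rows by role. The columns fall into 2 blocks by line: LDHB, PFKM, PFKP, HK1 and PFKFB3 are darker in all HepG2 libraries, while SLC16A3, PKLR and HK2 are darker in all Caco-2 libraries.

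The first comparison was between the lines without FFAs or a partner, mono-cultured Caco-2 control against mono-cultured HepG2 control, with 3 libraries each. Of the 34 genes, 26 differed at an adjusted p under 0.05 (limma on log2(TPM + 1), Benjamini-Hochberg over 16495 genes), 13 higher and 13 lower in Caco-2. Among all genes tested, 62.4% were called, 39% higher and 23.4% lower. The median difference (log2, Caco-2 minus HepG2) was 0.02 over the 34 genes and 0.20 over all genes tested. The libraries did not overlap for 28 of the 34 genes, against 67.5% of all genes. Of all genes called, 62.5% were higher in Caco-2, a share that was 52.8% after median-of-ratios scaling and 50.9% after quantile normalization, while among the 34 it was 11 of 27 and 12 of 27 called under these scalings. They moved the median of all genes from 0.20 to 0.04 and 0.00, so differences of about 0.2 or less are within the shift that the scaling alone makes.

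The largest difference was that of LDHB, the lactate dehydrogenase subunit of heart muscle and other oxidative tissues. Mono-cultured Caco-2 control libraries had 2297, 2256 and 2050 TPM, and those of HepG2 had 1.73, 2.16 and 0.46 TPM. The mean was 1518-fold higher in Caco-2 (log2 difference 9.88, SE 0.34, adjusted p = 5.28e-15). LDHA, the subunit of skeletal muscle and most tumours, was at 677, 771 and 572 TPM in Caco-2 and at 980, 874 and 1216 TPM in HepG2, with no overlap. It was lower in Caco-2 by a log2 difference of -0.60 (SE 0.18, adjusted p = 0.00594), and without the HepG2 libraries numbered 3 by -0.47, which did not pass (adjusted p = 0.0565).

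As a share of LDHA and LDHB together, LDHB made up 74.3% to 82.6% in the 11 Caco-2 libraries and 0.038% to 0.749% in the 12 HepG2 libraries. The families below are described in the same way, as a share of the summed TPM of the members named. These shares compare levels between genes per length.

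Of the hexokinases, which phosphorylate glucose on entry, HK1 and HK2 were exchanged. HK1, the isoform found in most tissues, had 18.7, 19.6 and 29.9 TPM in mono-cultured Caco-2 control and 0.62, 1.10 and 2.48 TPM in HepG2, a 16.2-fold higher mean in Caco-2 (log2 difference 3.35, SE 0.35, adjusted p = 8.8e-08), or 26.4-fold without the HepG2 library numbered 3. HK2, the isoform of muscle, fat and many tumours, had 9.17, 10.5 and 9.51 TPM in Caco-2 and 41.7, 43.6 and 56.6 TPM in HepG2, 4.86-fold higher in HepG2 (log2 difference -2.16, SE 0.25, adjusted p = 3.31e-07). HK1 was 62.8% to 79.4% of the pair in Caco-2 libraries and 1.45% to 5.97% in HepG2 libraries. The pair leaves out HKDC1, a hexokinase-like gene outside the 34. In mono-cultured Caco-2 control HKDC1 had a mean of 75.1 TPM, above HK1 (22.7 TPM) and HK2 (9.73 TPM). In mono-cultured HepG2 control its mean was 28.1 TPM, between HK1 (1.40 TPM) and HK2 (47.3 TPM).

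The phosphofructokinases, which catalyse the committing step, were mixed in Caco-2 and of 1 kind in HepG2. The liver isoform PFKL was 93.6% to 97% of the family in HepG2 and 30.1% to 39.1% in Caco-2, although its own level differed little, at a mean of 107 TPM in Caco-2 and 146 TPM in HepG2 (log2 difference -0.45, SE 0.13, adjusted p = 0.00633). The muscle isoform PFKM had 95.5, 96.9 and 104 TPM in Caco-2 and 5.34, 3.5 and 2.71 TPM in HepG2, 25.7-fold higher in Caco-2 (log2 difference 4.40, SE 0.18, adjusted p = 6.68e-14). The platelet isoform PFKP had 137, 130 and 113 TPM in Caco-2 and 5.15, 3.52 and 1.86 TPM in HepG2, 36.1-fold higher in Caco-2 (log2 difference 4.89, SE 0.32, adjusted p = 1.03e-10). The sum of the 3 genes was 283 to 411 TPM over Caco-2 libraries and 119 to 168 TPM over HepG2 libraries, so the Caco-2 libraries lay above those of HepG2 in total as well as in makeup.

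PFKFB3 and PFKFB4 make and break fructose 2,6-bisphosphate, the activator of phosphofructokinase. PFKFB3 was 13.8-fold higher in Caco-2, at a mean of 21.5 TPM against 1.56 TPM (log2 difference 3.10, SE 0.21, adjusted p = 2.06e-10). PFKFB4 was at 15.4, 15 and 10.7 TPM in Caco-2 and 13.4, 11.4 and 4.91 TPM in HepG2, with overlap (log2 difference 0.51, SE 0.35, adjusted p = 0.208). PFKFB3 was 52.2% to 73.6% of the pair in Caco-2 and 5.37% to 27.2% in HepG2.

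Among the steps with a dominant isoform the differences were smaller. ALDOA, the aldolase of muscle and most other cells, was 95.1% to 96.9% of ALDOA plus ALDOC in Caco-2 and 97.2% to 98.7% in HepG2. Neither ALDOA (log2 difference -0.27, adjusted p = 0.0693) nor ENO1 (log2 difference -0.15, adjusted p = 0.288) passed the test, while the brain aldolase ALDOC was higher in Caco-2 (log2 difference 0.58, SE 0.17, adjusted p = 0.00498), although its libraries overlapped and it did not pass under either other scaling. The neuronal and muscle enolases ENO2 and ENO3 were both lower in Caco-2, by log2 differences of -1.50 and -1.76. Together they were a small part of the enolase sum, of which ENO1 took 98.8% to 99.5% in Caco-2 and 96.7% to 98.3% in HepG2.

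TPI1, the single triose phosphate isomerase, was 2.51-fold higher in Caco-2, at 2233, 2353 and 2037 TPM against 878, 797 and 967 TPM (log2 difference 1.33, SE 0.11, adjusted p = 3.39e-09). GAPDH, PGK1 and PGAM1, the next enzymes of the pathway, were higher in Caco-2 by log2 differences of 0.49, 0.52 and 0.69. GPI, the isomerase between hexokinase and phosphofructokinase, had means of 275 and 264 TPM and a log2 difference of 0.06 (SE 0.12, adjusted p = 0.680). Under other scalings GPI had the opposite sign, and GAPDH did not pass under one of them.

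At the last step both lines used mainly PKM. Its mean was 893 TPM in Caco-2 and 501 TPM in HepG2 (log2 difference 0.86, SE 0.16, adjusted p = 0.000119). PKLR was at 2.01, 1.40 and 1.63 TPM in Caco-2 and 27.9, 26.5 and 24.9 TPM in HepG2, 15.7-fold higher in HepG2 (log2 difference -3.36, SE 0.31, adjusted p = 1.8e-08). Even so, PKLR was 1.99% to 7.17% of the pyruvate kinase sum in HepG2 libraries and 0.073% to 0.306% in those of Caco-2.

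**Figure D2:**
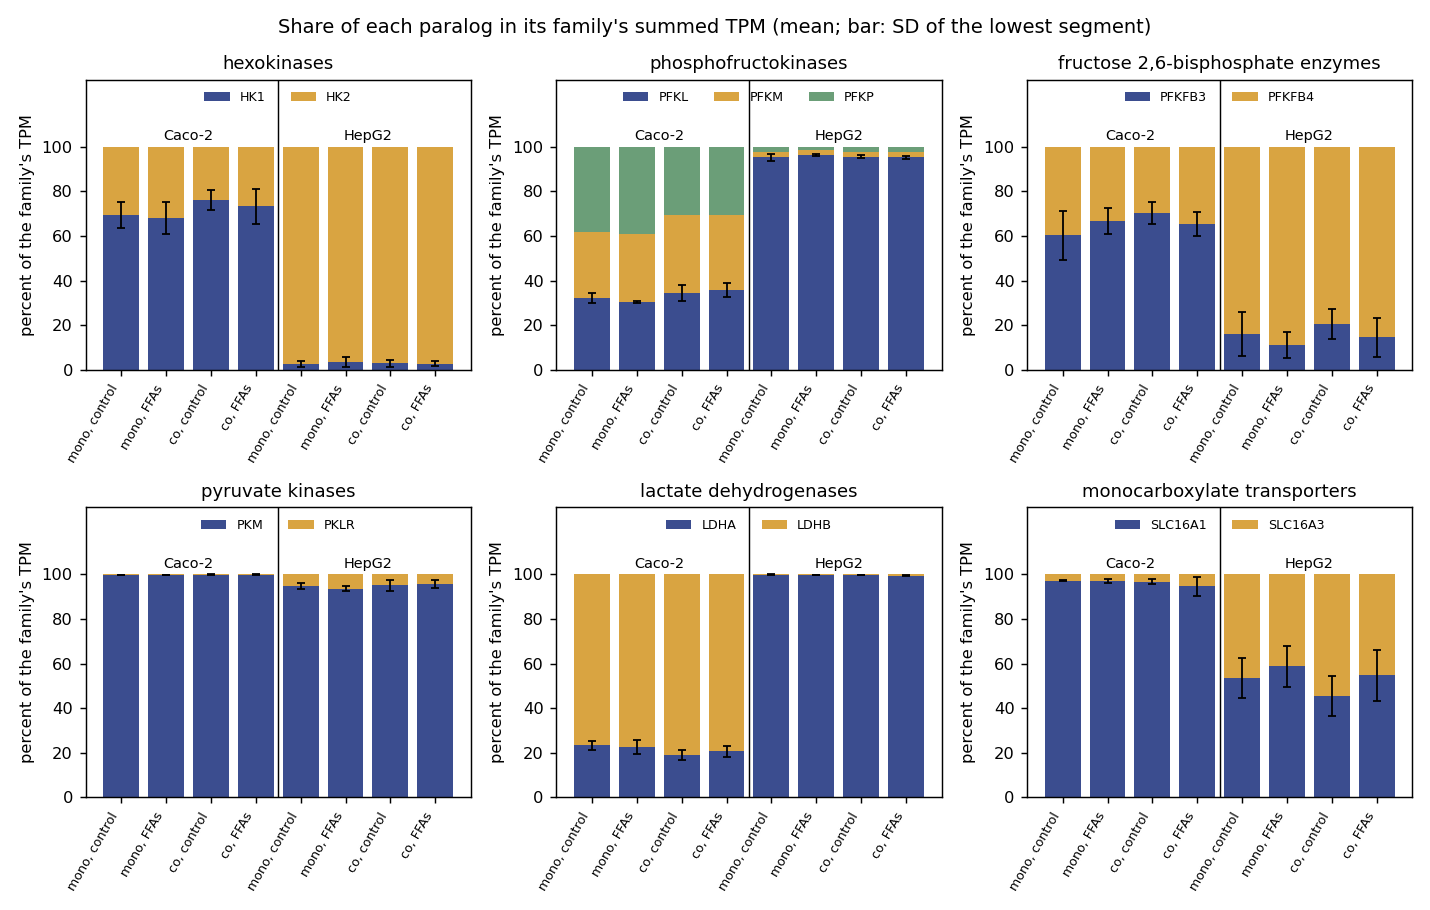
Share of each paralog in its family's summed TPM (percent), as group means (stacked bars, n = 3 libraries, 2 for co-cultured Caco-2 control) with the SD of the lowest segment, for 6 families. HK1, PFKM and PFKP, PFKFB3 and LDHB take large shares in every Caco-2 group and small shares in every HepG2 group, and SLC16A3 the reverse. Hexokinase shares are of HK1 and HK2 only.

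Lactate crosses the membrane through SLC16A1 (MCT1), which works in both directions, and SLC16A3 (MCT4), known for export from glycolytic cells. SLC16A3 had 2.57, 2.92 and 3.15 TPM in mono-cultured Caco-2 control and 157, 168 and 123 TPM in HepG2, 51.8-fold higher in HepG2 (log2 difference -5.26, SE 0.31, adjusted p = 1.91e-11). SLC16A1 was 1.73-fold higher in HepG2 (log2 difference -0.77, SE 0.18, adjusted p = 0.00116). SLC16A3 thus was 31.3% to 61.3% of the pair in HepG2 and 2.23% to 10.3% in Caco-2. Over all 4 genes of lactate handling, 1 was higher in Caco-2, LDHB, and 3 were lower.

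The 3 PDKs were all lower in Caco-2. PDK2, the PDK found in most tissues, liver included, had 20.3, 18.7 and 18.4 TPM in Caco-2 and 85.3, 76.2 and 55.6 TPM in HepG2, 3.78-fold higher in HepG2 (log2 difference -1.84, SE 0.19, adjusted p = 6.56e-08). PDK1, which HIF induces, differed by -1.02 (SE 0.20, adjusted p = 0.00019). PDK3 differed by -0.37 (SE 0.14, adjusted p = 0.0332), with means of 6.31 and 8.41 TPM, and did not pass without the HepG2 libraries numbered 3 or without any 1 of 4 mono-cultured control libraries (replicates 1 and 2 of Caco-2, 2 and 3 of HepG2).

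The HIF targets outside glycolysis did not move as a block between the lines. BNIP3 had 19, 18 and 23.2 TPM in Caco-2 and 124, 113 and 91.5 TPM in HepG2, 5.47-fold higher in HepG2 (log2 difference -2.39, SE 0.12, adjusted p = 2.18e-12). ADM, the vasodilator peptide adrenomedullin, went the other way, at 58.4, 63.9 and 88 TPM in Caco-2 and 25.1, 25 and 9.1 TPM in HepG2 (log2 difference 1.88, SE 0.45, adjusted p = 0.00131). EGLN3, at 4.37, 2.86 and 5.01 TPM in Caco-2 and 0.08, 0.54 and 2.38 TPM in HepG2, was higher in Caco-2 (log2 difference 1.49, SE 0.39, adjusted p = 0.00246), by 4.08-fold in the mean and 13.2-fold without the HepG2 library numbered 3. CA9 was lower (log2 difference -0.88, SE 0.24, adjusted p = 0.00352) at levels near 1 TPM or below in both lines.

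The other 4 HIF targets did not pass the test. VEGFA, the growth factor of blood vessels, had 132, 124 and 100 TPM in Caco-2 and 120, 155 and 91.2 TPM in HepG2 (log2 difference -0.01, SE 0.28, adjusted p = 0.976). NDRG1, a stress-response gene, had 34.4, 32.6 and 31.7 TPM in Caco-2 and 24.3, 24.9 and 30.0 TPM in HepG2 (log2 difference 0.31, adjusted p = 0.407). ANKRD37 differed by 0.54 and P4HA1, the collagen prolyl hydroxylase, by -0.19. The HIF targets therefore held 2 genes higher in Caco-2, 2 lower and 4 not called.

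**Figure D3:**
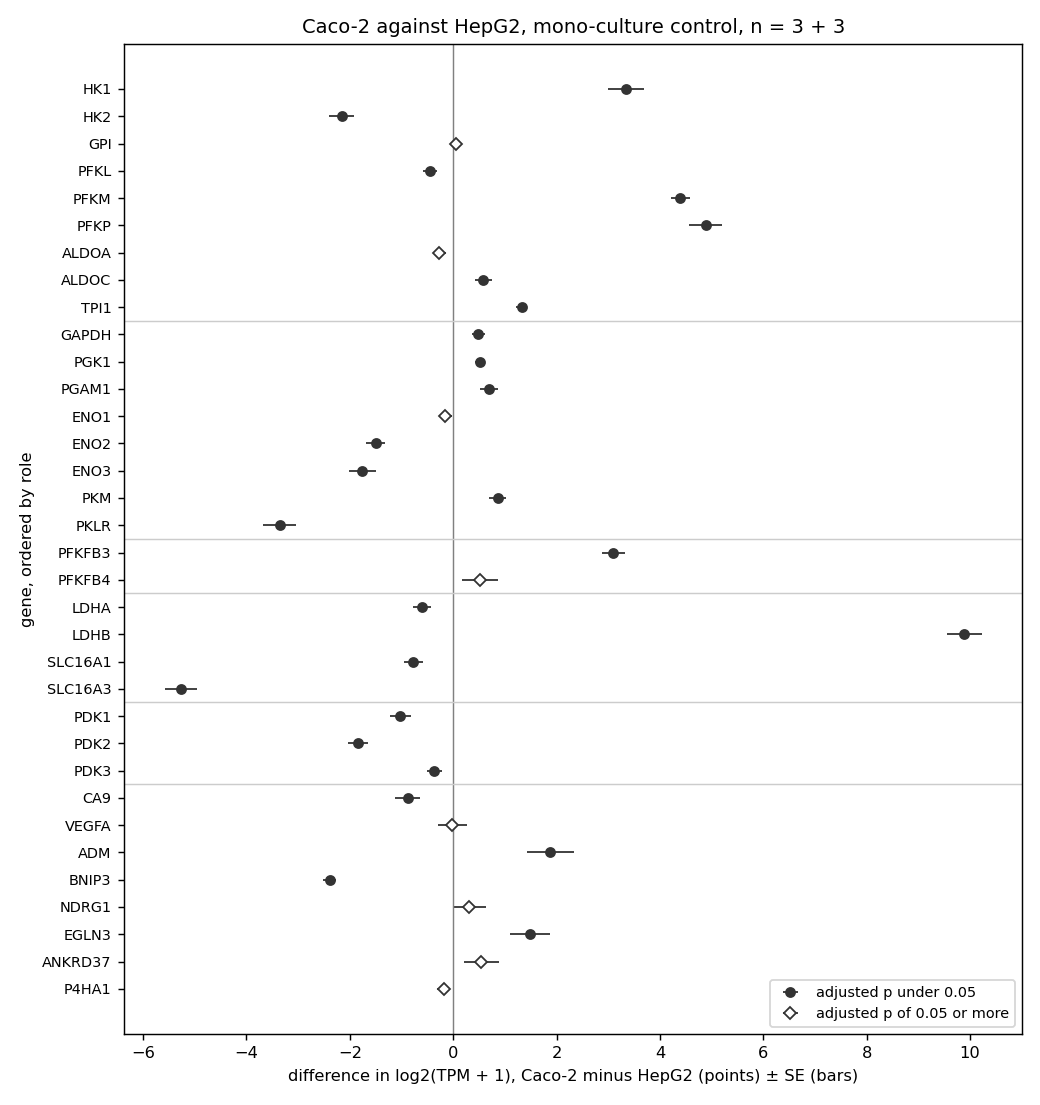
Difference between mono-cultured Caco-2 and HepG2 control libraries (Caco-2 minus HepG2, log2(TPM + 1), n = 3 each) for the 34 genes in order of role, with SE as bars and filled circles for an adjusted p under 0.05. LDHB (9.88) and SLC16A3 (-5.26) lie at the 2 ends, and paralogs such as HK1 and HK2 lie on opposite sides of 0.

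Under the other conditions the sizes varied for some genes. LDHB differed by 9.35 with FFAs in mono-culture, 9.37 in co-culture control and 7.96 in co-culture with FFAs, and HK2 by -1.75, -3.00 and -2.77. The number of the 34 genes called was 26 with FFAs in mono-culture (61.1% of all genes), 24 in co-culture control (58.8%) and 26 in co-culture with FFAs (61%). Averaged over the 4 conditions, 30 of the 34 were called, 15 in each direction (79% of all genes), and GPI, PFKFB4, VEGFA and P4HA1 were the 4 that were not. All 11 Caco-2 libraries lay apart from all 12 HepG2 libraries for 19 of the 34 genes, 8 higher and 11 lower in Caco-2, against 42.7% of all genes. The 8 were HK1, PFKM, PFKP, TPI1, PGK1, PFKFB3, LDHB and ADM. Without the HepG2 libraries numbered 3, 24 of the 34 were called in mono-culture control and 29 on average. The share of all genes called in that refit is not given, so these counts have no background to be read against.

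Genes of the same pathways outside the 34 were counted from lists chosen with earlier results of these data known. The counts stand beside the 62.4% of all genes called (39% higher and 23.4% lower in Caco-2). Of 21 tested genes of glucose entry and pyruvate handling, 16 were called between the mono-cultured controls, 13 higher in Caco-2 and 3 lower. SLC2A3, the high-affinity glucose transporter GLUT3, was higher in Caco-2 by a log2 difference of 5.92, and SLC2A2, the liver transporter GLUT2, was lower by a log2 difference of -3.21. SLC2A1 (GLUT1) differed by -0.47 (adjusted p = 0.253). Of 12 genes of oxygen sensing 6 were called, 5 of them higher in Caco-2, and HIF1A itself had a log2 difference of -0.15 (adjusted p = 0.378). Of 22 further HIF targets 13 were called, 3 higher and 10 lower in Caco-2.

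The second question was whether the partner line in the loop altered these genes. In Caco-2 no gene passed when co-culture (5 libraries) was compared with mono-culture (6 libraries) over both treatments: 0 of 15081 genes (0%) and 0 of the 33 of the 34 genes that could be tested by limma, CA9 being too low. At an unadjusted p under 0.05 there were 9 of the 33, 4 higher and 5 lower, where 10.5% of all genes reached it. The median log2 difference was -0.07 over the 33 genes and 0.03 over all genes. For none of the 33 did the co-cultured libraries lie wholly apart from the mono-cultured ones, as 1.38% of all genes did.

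None of the following Caco-2 values passed the adjusted threshold. The fitted difference was below 0 for 8 of 9 upper and 6 of 8 lower glycolysis genes, while 8568 of all 15081 genes were above 0, and many of these values were within 0.2 of 0. PFKP had the smallest p of the 34: 137, 130 and 113 TPM in mono-culture control, 185, 144 and 102 TPM in mono-culture with FFAs, 105 and 77.1 TPM in co-culture control and 94.3, 86.0 and 88.9 TPM in co-culture with FFAs. The co-cultured libraries were the lower ones, with 1 of them, at 105 TPM, above the lowest mono-cultured one at 102 TPM (log2 difference -0.56, SE 0.14, adjusted p = 0.308).

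LDHA in Caco-2 averaged 658 TPM in mono-culture and 505 TPM in co-culture (log2 difference -0.40, SE 0.15, adjusted p = 0.408). SLC16A1, ALDOA and PGAM1 had log2 differences of -0.27, -0.25 and -0.24. The 7 testable HIF targets had log2 differences from 0.03 to 0.72, those of P4HA1 (0.03) and ANKRD37 (0.07) being close to 0. ADM was the largest, with co-cultured libraries at 105, 148, 78.6, 209 and 128 TPM and mono-cultured ones from 58.4 to 108 TPM (log2 difference 0.72, SE 0.23, adjusted p = 0.345). BNIP3, NDRG1 and PDK2 were the others at an unadjusted p under 0.05, with log2 differences of 0.29, 0.36 and 0.29. The count of 9 moved to 17 without mono-cultured Caco-2 FFAs replicate 3. No share of all genes is given for that refit, so whether the rise is particular to these genes cannot be read from it. The count without co-cultured Caco-2 control replicate 2 is left out, since that refit keeps a single library in the group.

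In HepG2, 8 of 14255 genes (0.0561%) passed in the same comparison (6 libraries each) and none of the 34 did by limma. At an unadjusted p under 0.05 there were again 9 of the 34, 7 higher and 2 lower, where 12.5% of all genes reached it. The median log2 difference was 0.10 over the 34 genes and -0.02 over all genes, and for none of the 34 were the co-cultured libraries wholly apart, as 1.35% of all genes were.

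ENO1 had the smallest p. Its libraries were at 2176, 1999 and 2220 TPM in mono-culture control, 2304, 2042 and 1767 TPM in mono-culture with FFAs, 2783, 2621 and 2651 TPM in co-culture control and 2710, 2685 and 2236 TPM in co-culture with FFAs. All but 1 co-cultured library exceeded all mono-cultured ones, the exception being replicate 3 with FFAs (log2 difference 0.33, SE 0.08, adjusted p = 0.139). HK2 averaged 40.6 TPM in mono-culture and 61.3 TPM in co-culture (log2 difference 0.57, SE 0.17, adjusted p = 0.212), although co-cultured FFAs replicate 1 was at 36.9 TPM and the mono-cultured libraries ran from 26.9 to 56.6 TPM. ALDOA, PKM, ENO2 and LDHA had log2 differences of 0.23, 0.32, 0.23 and 0.21.

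The 2 genes on the lower side in co-cultured HepG2 were NDRG1 and PDK2. NDRG1 had 24.3, 24.9 and 30.0 TPM in mono-culture control, 21.6, 24.0 and 40.6 TPM in mono-culture with FFAs, 14.0, 7.14 and 19.2 TPM in co-culture control and 14.4, 10.8 and 29.6 TPM in co-culture with FFAs. The only co-cultured library within the mono-cultured range was replicate 3 with FFAs (log2 difference -0.85, SE 0.27, adjusted p = 0.235). PDK2 averaged 73.6 TPM in mono-culture and 54.7 TPM in co-culture (log2 difference -0.43, SE 0.15, adjusted p = 0.283). Without the HepG2 libraries numbered 3, 11 of the 34 had an unadjusted p under 0.05 and none passed the adjusted threshold. The count was 5 without co-cultured HepG2 control replicate 3 or mono-cultured HepG2 control replicate 1. Here too no share of all genes is given for the refits.

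In HepG2 the 2 highest LDHB values were in co-culture with FFAs, whose libraries were at 9.85, 4.50 and 7.76 TPM, against 1.27, 3.80 and 1.51 TPM in co-culture control and 2.54, 4.53 and 0.91 TPM in mono-culture with FFAs. Mono-cultured control libraries did not exceed 2.16 TPM, and the averaged co-culture difference of LDHB was 0.82 (SE 0.31, adjusted p = 0.312), or 0.49 without the libraries numbered 3. LDHB is abundant in Caco-2, so the 10 intestinal markers are given beside it.

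The intestinal cadherin CDH17 had 2.75 and 1.79 TPM in co-cultured FFAs replicates 1 and 3, but 0.58 TPM in replicate 2, within the 0.05 to 0.76 TPM of the other 9 HepG2 libraries. PHGR1 had 1.63 and 0.39 TPM in replicates 1 and 3 and was listed at 0 in replicate 2 and in the other 9. As a percentage of their means in mono-cultured Caco-2 control, LDHB in the 3 libraries was at 0.447%, 0.204% and 0.353%, and CDH17 at 0.690%, 0.146% and 0.449%. Of the 10 markers, 3 (CDH17, PHGR1 and MUC13) had their highest HepG2 value in replicate 1 of this group and 7 in a library of another group, and CDX1 and GPA33 were listed at 0 in all 3 libraries. The summed level of the 10 markers was 180 to 202 TPM in the 3 libraries and 227 to 260 TPM in the 6 mono-cultured HepG2 libraries, most of it VIL1. The part of Caco-2 RNA in the LDHB values was not tested. Per the paper's methods, each line was harvested from its own chamber with the valves closed against cross-contamination. In RNA of a whole chamber, a change in the number of cells of a kind and a change in RNA per cell cannot be told apart.

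In Caco-2, SLC16A3 was at 9.47 TPM in co-cultured FFAs replicate 1 and at 2.08 to 3.75 TPM in the other 10 libraries. Of the 10 hepatic markers, 5 (ALB, AFP, FGA, HP and TF) had their highest Caco-2 value in that library, most of them by a small margin. Transferrin (TF) was at 133 TPM there and at 4.17 to 10.2 TPM in 9 of the other libraries, and it was at 42.8 TPM in co-cultured control replicate 1, where SLC16A3 was at 3.16 TPM. The summed level of the 10 markers was 5533 TPM in the library with high SLC16A3, within the 3421 to 6179 TPM of the others, since Caco-2 itself had several of them. The part of HepG2 RNA in this value was not tested.

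**Figure D4:**
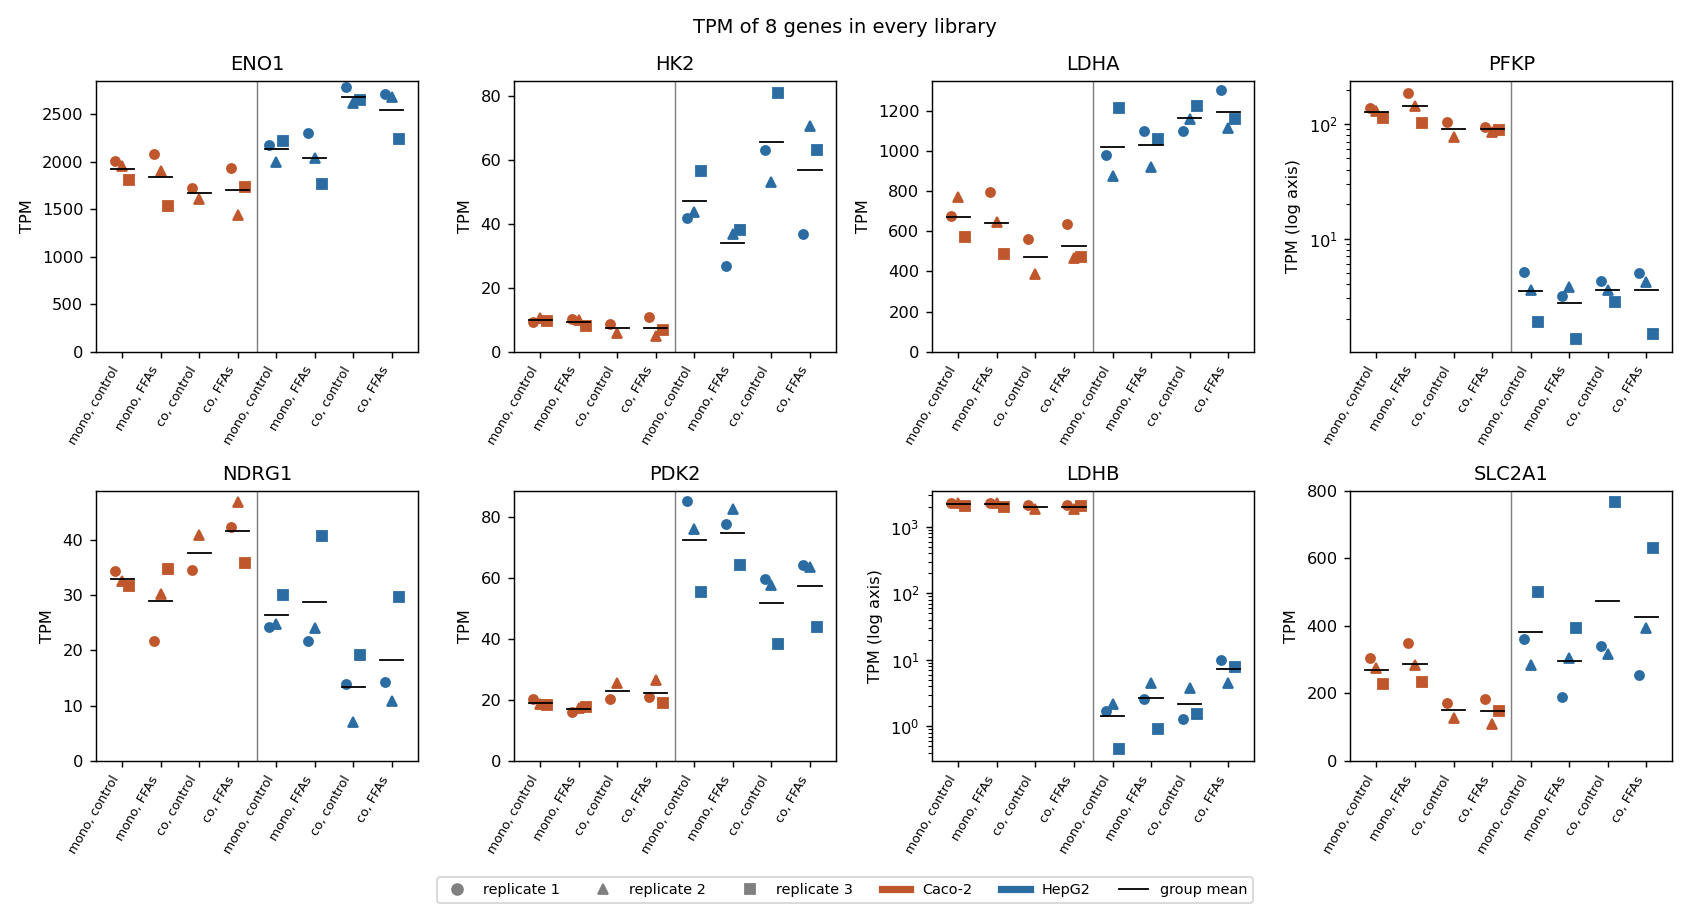
TPM of 8 genes in each of the 23 libraries (points, shaped by replicate number and coloured by line), with group means as bars and a log axis for PFKP and LDHB. Co-cultured HepG2 libraries lie higher for ENO1 and lower for NDRG1 except replicate 3 with FFAs, and SLC2A1 lies lower in all 5 co-cultured Caco-2 libraries.

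Because the fitted signs of several genes differed between the lines, the difference itself was tested, as the co-culture contrast in Caco-2 minus that in HepG2 over all 23 libraries. Of 16495 genes 88 passed (0.533%), and none of the 34. At an unadjusted p under 0.05 there were 13 of the 34, 10 negative and 3 positive, where 14.6% of all genes reached it. The median was -0.11 over the 34 and 0.06 over all genes.

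The nearest to the threshold were ENO1 at -0.48 (SE 0.12, adjusted p = 0.0833), PDK2 at 0.73 (SE 0.19, adjusted p = 0.0998) and NDRG1 at 1.21 (SE 0.33, adjusted p = 0.102). HK2 differed by -0.93, LDHA by -0.60, ALDOA by -0.48 and PKM by -0.45, with adjusted p between 0.105 and 0.204 by limma. Without the HepG2 libraries numbered 3, PDK2 (0.68, adjusted p = 0.0280) and NDRG1 (1.38, adjusted p = 0.0159) passed, among 249 genes in all. Leaving out single libraries gave 0 to 2 of the 34. HK2 passed without Caco-2 co-culture FFAs replicate 1 or HepG2 co-culture FFAs replicate 1, NDRG1 without HepG2 co-culture FFAs replicate 3, ENO1 without HepG2 mono-culture FFAs replicate 1, ENO1 and ALDOA without Caco-2 mono-culture FFAs replicate 3, and PDK2 and ALDOA without HepG2 mono-culture control replicate 3.

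**Figure D5:**
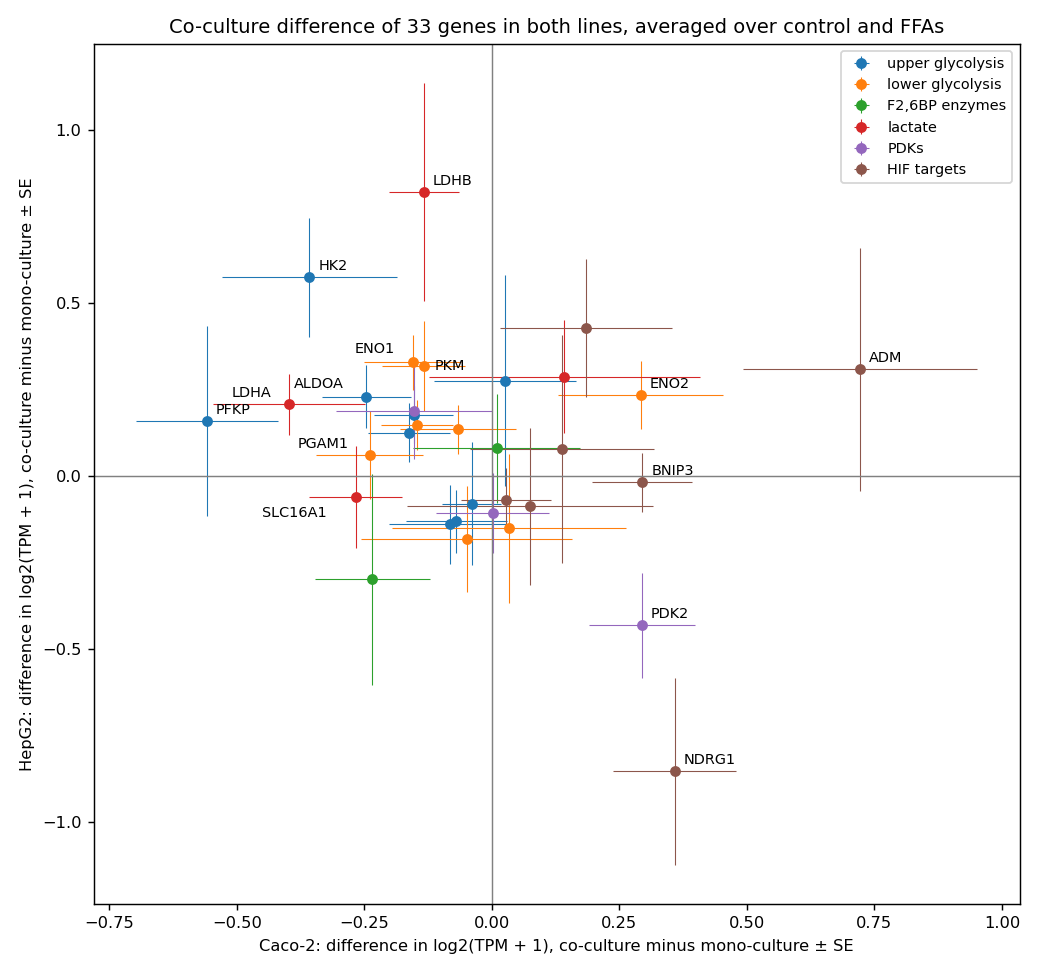
Co-culture minus mono-culture difference in log2(TPM + 1), averaged over control and FFAs, in Caco-2 (x axis, n = 5 and 6) and HepG2 (y axis, n = 6 and 6) for the 33 genes tested in both lines, with SE as bars and colour by role. HK2, ENO1, ALDOA, LDHA and PKM lie in the upper left and PDK2 and NDRG1 in the lower right, and no point passed the adjusted threshold in either line.

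Glucose entry lies just before these steps. SLC2A1 in Caco-2 was at 227 to 350 TPM in 6 mono-cultured libraries and 109 to 184 TPM in 5 co-cultured ones, without overlap (log2 difference -0.91, SE 0.15, adjusted p = 0.141). HKDC1, a hexokinase-like gene, was at 69.1 to 79.7 TPM and 41.4 to 57.0 TPM (log2 difference -0.62, SE 0.09, adjusted p = 0.105). Of the 20 tested genes of glucose entry and pyruvate handling in Caco-2, 5 had an unadjusted p under 0.05, 3 of them lower, and the 11 genes of oxygen sensing held none. Of the 21 further HIF targets 6 reached it, 3 in each direction, the smallest p being that of CITED2 at 0.67. In HepG2 the counts were 4 of 20, 1 of 11 and 3 of 21. Of all genes 10.5% reached that p in Caco-2 and 12.5% in HepG2.

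Taken one treatment at a time, co-culture gave fewer genes. In Caco-2, 4 of the 33 had an unadjusted p under 0.05 in control (5.43% of all genes) and 4 with FFAs (6.09%). SLC16A1, ADM, LDHA and PFKP were the 4 in control, and PFKP, NDRG1, BNIP3 and PDK2 the 4 with FFAs. In HepG2 there were 5 of the 34 in control (7.53% of all genes), ENO1, NDRG1, ALDOA, ENO2 and PDK2, and 3 with FFAs (5.63%), ENO1, LDHB and HK2. ENO1 had log2 differences of 0.33 and 0.32 in the 2 treatments, with adjusted p of 0.616 and 0.843 by limma.

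The third comparison was FFAs against control. None of the 34 genes passed in any contrast by limma, and averaged over both cultures 0% of genes passed in Caco-2 and 0% in HepG2. At an unadjusted p under 0.05 there were 0 of 33 in Caco-2 (3.99% of all genes) and 1 of 34 in HepG2 (3.49%), which was LDHB at 0.97 (SE 0.31, adjusted p = 1.00). Over both cultures, no gene of the 34 had FFAs-treated libraries wholly apart from control, against 0.424% of all genes in Caco-2 and 0.0982% in HepG2. The median log2 difference was -0.01 over the 33 genes in Caco-2 and -0.02 over the 34 in HepG2, beside 0.01 over all genes in both lines.

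In Caco-2 the smallest p-values belonged to PKLR, PDK1 and ALDOC, with averaged log2 differences of -0.45 (SE 0.23), 0.27 (SE 0.15) and -0.17 (SE 0.12) and an adjusted p of 0.990 for each. PKLR had 2.01, 1.40 and 1.63 TPM in mono-culture control and 0.92, 0.89 and 0.59 TPM with FFAs, 2.52 and 0.78 TPM in co-culture control and 1.96, 0.68 and 0.61 TPM with FFAs. It was lower with FFAs in all 3 mono-cultured libraries, at a level of about 1 TPM, whereas the co-cultured libraries overlapped. In HepG2, HK2 followed LDHB, with an averaged log2 difference of -0.35 (SE 0.17), and ALDOC was at -0.20 (SE 0.11).

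In the single FFAs contrasts none of the 34 passed either. In mono-culture the unadjusted count was 0 of 33 in Caco-2 (2.61% of all genes) and 0 of 34 in HepG2 (2.24%). In co-culture it was 0 of 33 in Caco-2 (2.83%) and 2 of 34 in HepG2 (1.84%), LDHB at 1.42 (SE 0.45) and ALDOC at -0.40 (SE 0.16). With 2 or 3 libraries on a side, some groups did not overlap. In mono-culture this held for 2 of 33 in Caco-2 (PKLR and PDK2, lower with FFAs), against 7.13% of all genes, and for 2 of 34 in HepG2 (HK2 lower, PKLR higher), against 6.47%. In co-culture it held for 5 of 33 in Caco-2 (HK1 and PFKM lower, PFKFB4, PDK3 and BNIP3 higher), against 17.2%, and for 2 of 34 in HepG2 (ALDOC lower, LDHB higher), against 5.42%. The FFAs contrast did not differ between co-culture and mono-culture for any of the 34 at an unadjusted p under 0.05 in either line. Between the lines, 0.0182% of genes passed the test of a different FFAs contrast and none of the 34 did, while 1 of the 34, LDHB (-0.97, SE 0.35), had an unadjusted p under 0.05, where 2.99% of all genes reached it.

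PDK4, a kinase of the same family that fatty acids are known to induce, is not among the 34 and was named after its values were seen. It is therefore no check of the treatment, and in HepG2 it was too low to be tested. In Caco-2 it was at 0.75, 0.90 and 0.76 TPM in mono-culture control, 0.82, 1.18 and 3.56 TPM in mono-culture with FFAs, 0.51 and 0.73 TPM in co-culture control and 2.38, 5.14 and 3.49 TPM in co-culture with FFAs. The co-cultured groups did not overlap, but the averaged log2 difference of 1.02 did not pass over all genes (adjusted p = 0.990).

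For mono-cultured against co-cultured samples the methods of the study name DESeq2, a count test that was not possible here. To take in the FFAs treatment they select differentially expressed genes by an analysis of variance with an unadjusted p under 0.05 and a fold criterion between samples. Its exact form is not stated in the sources used here, so a 1-way analysis over the 4 groups of a line was run, with a 1.2-fold difference between the means of any pair of groups. By that rule 957 of 31100 genes (3.08%) qualified in Caco-2 and 1 of the 34 did, BNIP3, with an unadjusted p of 0.0498. In HepG2 it was 1066 of 29942 genes (3.56%) and 2 of the 34, ENO1 and LDHB. With single libraries left out the count ran from 0 to 4 in Caco-2, 0 being the result for 7 of 11 libraries and 4 that without mono-cultured FFAs replicate 3, and from 1 to 5 in HepG2, 5 being that without mono-cultured control replicate 3. With adjusted p-values none of the 34 qualified in either line.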

How the data were processed

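Per the labels and the study's methods, polyA RNA from Caco-2 and HepG2 cells was amplified with the SMART-Seq v4 kit, which keeps no strand, and sequenced. The authors removed reads on rRNA, tRNA and the mitochondrial genome with Bowtie2 2.1.0, aligned the rest to GRCh38 (Ensembl 98) with STAR 2.7.1a and deposited TPM per gene from RSEM 1.3.0, 1 file per library, without pooling. One label field names another cell type (primary myoblasts) as the RNA source. The labels give 0.5% serum in the treatment medium, unlike the serum-free medium of the paper's methods. Depth is unknown, so no count test or counting interval was possible. Without strand, reads of a gene and of a gene opposite to it cannot be told apart, and 17 of the 34 genes have an opposite-strand gene over their exons in GENCODE release 44.

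TPM were tested as log2(TPM + 1) with limma 3.58.1 (R 4.3.3, empirical Bayes with a trend), which understates changes of low genes. Genes needed a mean of at least 1 TPM in 1 group. The 4 groups of a line shared a fit, and line comparisons used all 23 libraries. P-values were two-sided, were adjusted by Benjamini-Hochberg over all genes tested, and a gene was called at an adjusted p under 0.05. The fits were tested on simulated data. Alternatives were another pseudocount, filter, scaling, trend, the replicate block and leaving out libraries. The 34 genes and the further lists were chosen with earlier results of these data known. Every gene of the 34 called between the lines could be named, and within a line the 3 with the smallest p or an unadjusted p under 0.05. SLC2A1, HKDC1, PDK4, CITED2 and the other genes outside the 34 were named after their values were seen.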

Additional observations from a re-analysis of the deposited data

How the results depend on the processing

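Of the 34 genes, the number called between the mono-cultured lines was 25 to 26 with single libraries left out, with no share of all genes given. Under either other scaling it was 27, where 10071 (median-of-ratios) and 10187 (quantile) of 16495 genes were called. ALDOA and P4HA1 then gained a call under both scalings and ENO1 under median-of-ratios scaling, while ALDOC lost it under both and GAPDH under median-of-ratios scaling (0.29). GPI reversed to -0.14 under median-of-ratios scaling, -0.081 under quantile normalization and -0.0153 without mono-cultured HepG2 control replicate 2, the lowest of its values with a library left out, which reached 0.119. VEGFA reversed to 0.10 without mono-cultured Caco-2 control replicate 3 and 0.17 without mono-cultured HepG2 control replicate 2, the highest of such values, the lowest being -0.21. These values lay near 0 throughout, and the cause was not tested. With only the 2 groups compared in the fit, PDK3 lost its call and NDRG1 gained one. No gene of the 34 was called within a line under any other pseudocount, filter, trend or scaling.

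Replicate numbers were shared between groups, but no source says that they mark a chip or day. Deviations of same-numbered libraries correlated by 0.05 to 0.27, -0.09 to 0.09 and 0.24 to 0.31 for replicates 1, 2 and 3 of Caco-2, and by 0.03 to 0.52, 0.10 to 0.31 and 0.46 to 0.60 for those of HepG2. Since not every pair was over 0.1 in either line, the numbers were not taken to pair the libraries, although replicate 3 of both lines and most HepG2 pairs were over it. With a replicate block the co-culture comparison called 1 of the 34 in Caco-2 (PFKP) and 5 in HepG2 (ENO1, HK2, NDRG1, PKM and PDK2), with 17 and 16 at an unadjusted p under 0.05. Over all genes it called 60 and 492, and the share of all genes at that unadjusted p is not given. The block called 8 of the 34 for the difference of the co-culture contrast between the lines (ENO1, PDK2, NDRG1, PFKP, LDHA, PKM, ALDOA and HK2), among 835 genes in all, gave ALDOA and PFKFB4 a call between the lines, and made the analysis of variance count 9 in HepG2.

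The analysis of variance count was 1 in HepG2 with a pseudocount of 0.1 and 0 in both lines with adjusted p-values. With single libraries left out it ran from 0 to 4 in Caco-2 and from 1 to 5 in HepG2. The unadjusted co-culture count then reached 17 in Caco-2 and ran from 5 to 11 in HepG2. The low end in Caco-2 came from a refit with a single library in co-cultured control and is left out. No share of all genes is given beside these counts. The difference between the lines gave 0 to 2 calls. It gave 2 without the HepG2 libraries numbered 3, an alternative chosen after seeing the data. Over all genes, the co-culture count of HepG2 (8) was 22 with a minimum of 5 TPM, 12 with a pseudocount of 0.1, 4 after quantile normalization or without the trend and 1 without a filter. That of Caco-2 (0) was 7 without a filter and 8 without the trend. Depth being unknown, differences of genes near 1 TPM (CA9, EGLN3, PKLR in Caco-2, LDHB and HK1 in HepG2) have an unknown counting error.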
